A study of Mus musculus with 10 samples.

Results

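The 9 membrane-bound adenylate cyclases of the mouse, Adcy1 to Adcy9, were followed in cultured adipose stem and precursor cells (ASPCs). They were taken by gene symbol from a table of read counts, where they made up 9 of 25229 rows, and all 9 had enough reads to be among the 14251 genes tested. The cells were sorted as CD45-CD31-Pdgfra+ from the stromovascular fraction of perigonadal white adipose tissue (gWAT) of WT mice, grown to confluence without passaging and lysed for bulk RNA sequencing. In the 5 libraries called DMSO, the cells had received vehicle for 6 hr. In the 5 libraries called FICZ, they had received 100 nM FICZ, a tryptophan-derived ligand of the aryl hydrocarbon receptor (AHR), for the same 6 hr. Libraries were numbered 1 to 5 in each group. Neither the sex nor the age of the mice was given in the labels, nor whether each number stood for 1 mouse, so the p-values measure the spread between these libraries.

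Adenylate cyclases make cyclic AMP (cAMP) from ATP. Hormone receptors that couple to the G protein Gs switch them on and receptors that couple to Gi can switch them off, and the cAMP they make acts through protein kinase A, the EPAC exchange factors and the transcription factor CREB until phosphodiesterases break it down. In fat tissue this pathway is best known for driving lipolysis in mature adipocytes and for its part in the differentiation of their precursors. The membrane enzymes all respond to Gs, and differ in what else acts on them: calcium with calmodulin stimulates ADCY1, ADCY3 and ADCY8, free G protein βγ subunits add to the Gs response of ADCY2, ADCY4 and ADCY7, calcium inhibits ADCY5 and ADCY6, and ADCY9 is the member that responds least to the plant diterpene forskolin.

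The libraries held 38328611 to 50210111 counts in DMSO and 40272024 to 47670865 in FICZ. Levels are given as CPM (counts scaled to a common library size) corrected by TMM factors, and 3 counts, taken as the limit of detection, came to 0.0603 to 0.0787 CPM. The treatment was checked on 4 AHR target genes: Cyp1a1 went from 26.8 ± 12.8 to 255 ± 92.4 CPM (SD, n = 5 each), and Ahrr and Tiparp also passed the test across all genes (adjusted p = 0.00324 and 0.0335, edgeR's quasi-likelihood test with Benjamini-Hochberg adjustment), while Cyp1b1, at 980 and 1510 CPM and higher in 5 of 5 pairs, did not (adjusted p = 0.147, same test). By DESeq2 Cyp1b1 passed (adjusted p = 3.33e-05), and with the replicate block Tiparp no longer passed by edgeR (adjusted p = 0.0509). Stem and precursor cell markers such as Col3a1 were abundant, with 11 markers summing to 11400 to 16300 CPM. Transcripts of hepatocytes were also present. Their 15 markers summed to 1720 to 4190 CPM in 9 libraries and to 10100 CPM in DMSO 5, which therefore stands apart. The list medians and some of the fold changes are also given without DMSO 5. Fold changes given only with it may depend on it too, such as that of Pde7b (-0.24, and -0.14 without DMSO 5). Markers of macrophages summed to 27.0 to 66.1 CPM in DMSO, again highest in DMSO 5, and to 26.8 to 39.6 CPM in FICZ. In bulk RNA, fewer cells of a type and less RNA per cell cannot be told apart.

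Under vehicle, the ASPCs expressed mainly Adcy7, Adcy6 and Adcy3. To compare genes, CPM were divided by the length of all exons of the gene in kilobases. On this scale Adcy7 stood at 19.7 ± 1.60 CPM per kb (SD, n = 5), Adcy6 at 12.9 ± 2.09 and Adcy3 at 6.74 ± 0.544. The order below them was Adcy9 at 3.80 ± 0.172, Adcy4 at 1.40 ± 0.111, Adcy1 at 1.01 ± 0.302, Adcy5 at 0.655 ± 0.156, Adcy2 at 0.333 ± 0.0474 and Adcy8 at 0.0848 ± 0.0268 CPM per kb. The DMSO ranges of neighbours in this order did not overlap, except for Adcy1 and Adcy5, where Adcy1 fell to 0.501 in DMSO 5 and Adcy5 reached 0.834 in DMSO 4. Each of the upper 4 was above the next in all 10 libraries. These levels are a description and carry no test.

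As a share of the summed CPM per kb of the 9 genes, Adcy7 took 42.3% ± 1.42 under vehicle (SD, n = 5), with a range of 41.0% to 44.2%. Adcy6 took 27.6% ± 2.48, Adcy3 14.5% ± 0.628 and Adcy9 8.21% ± 0.962. The other 5 genes held small shares, from 3.02% for Adcy4 and 2.13% for Adcy1 to 1.39% for Adcy5, 0.716% for Adcy2 and 0.179% for Adcy8. Grouped by regulation, the βγ-stimulated enzymes together held 46.1% ± 1.78, the calcium-inhibited pair 29.0% ± 2.57 and the calcium-stimulated enzymes 16.8% ± 0.547. Each of these groups was thus carried by a single gene, Adcy7, Adcy6 and Adcy3 respectively. The order of the upper 4 did not depend on which gene length was used, but that of Adcy4 and Adcy1 did: with the longest coding sequence as length, Adcy1 held 4.12% and Adcy4 2.27%.

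**Figure D1:**
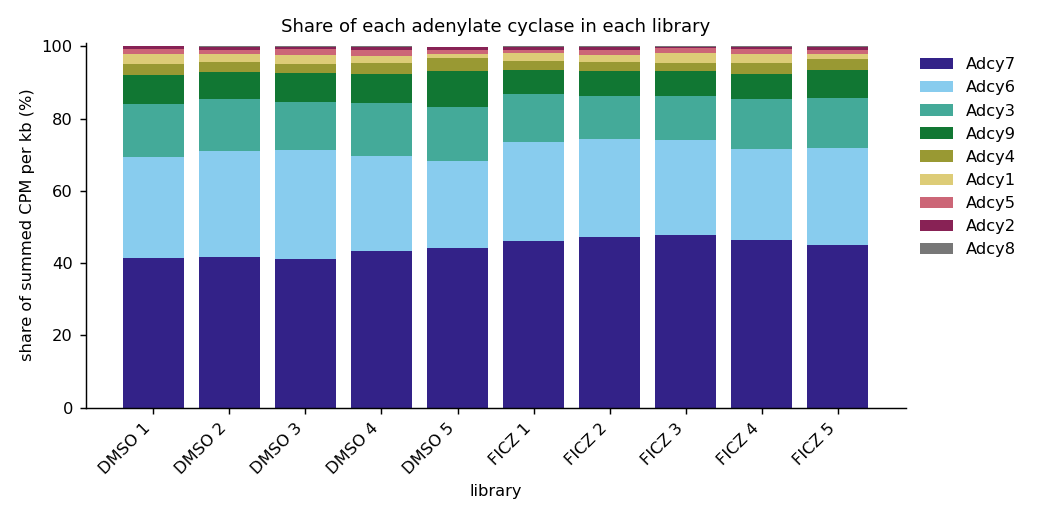
Share of each adenylate cyclase in the summed CPM per kb of the 9 genes (vertical axis, %), 1 bar per library. Adcy7 took 41.0% to 44.2% in the DMSO libraries and 45.1% to 47.7% in the FICZ libraries, and Adcy7, Adcy6, Adcy3 and Adcy9 filled most of every bar.

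With FICZ the make-up of the family was much the same, with a somewhat larger part for Adcy7. Its share was 46.5% ± 1.01 (SD, n = 5), which is 4.18 percentage points above vehicle, and the ranges of the groups did not overlap. The shares of Adcy6, Adcy3 and Adcy9 were 26.5% ± 0.743, 13.1% ± 0.860 and 6.95% ± 0.423, with differences of -1.05, -1.39 and -1.26 points. Since shares sum to the whole, a larger part for 1 gene lowers those of the others. The summed level itself was 46.7 ± 4.30 CPM per kb in DMSO (39.9 in the lowest library, DMSO 5) and 53.7 ± 3.15 in FICZ (49.0 to 57.8), and the highest DMSO library was above the lowest FICZ library. The ratio of Adcy7 to Adcy6 was 1.55 ± 0.196 in DMSO and 1.75 ± 0.0659 in FICZ, and overlapped too, whereas the ratio of Adcy7 to Adcy3, at 2.83 to 3.05 in DMSO and 3.24 to 3.92 in FICZ, did not.

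**Figure D2:**
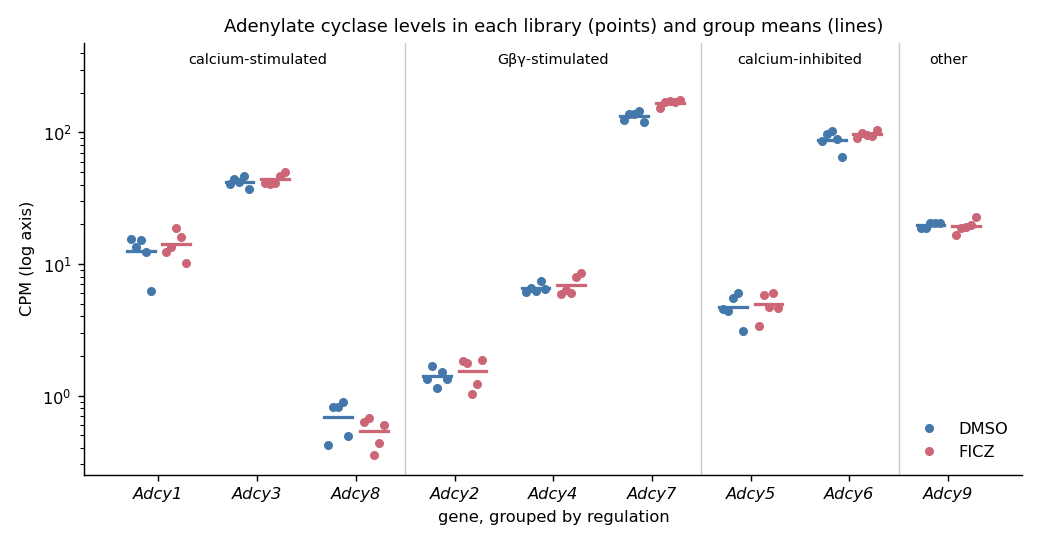
Level of each adenylate cyclase (vertical axis, CPM, log axis, not divided by gene length) in the 5 DMSO and 5 FICZ libraries, ordered by regulation, with points for libraries in the order 1 to 5 and lines for group means. Adcy7 is the gene whose groups do not overlap (119 to 146 CPM in DMSO, 152 to 176 in FICZ), and the low DMSO point of Adcy1 and Adcy6 is DMSO 5.

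The question put to the treatment was whether AHR activation changes the expression of any of these enzymes. None of the 9 passed the test across all genes (edgeR's quasi-likelihood test, adjusted p at or under 0.05), against 3 of all 14251 genes, or 0.0211%. At an unadjusted p at or under 0.05 there was 1 of 9, Adcy7, against 4.82% of all genes. None passed by DESeq2 either, whether or not the replicate number entered the model as a block, and limma-voom gave the same count of 0. The fitted log2 fold changes (FICZ over DMSO) were above 0 for 7 of the 9 and had a median of 0.08. Over all genes tested, 7666 of 14251 were above 0 and the median was 0.01. Without DMSO 5, the fold changes of 5 of the 9 members were above 0, with a median of 0.02. Over all genes in that fit, 7372 of 14300 were above 0, with a median of 0.00.

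Among the βγ-stimulated enzymes, Adcy7 (chromosome 8, 88272403 to 88329962, plus strand, GRCm38) had the largest share and the smallest p of the family. It stood at 125, 137, 137, 146 and 119 CPM in DMSO 1 to 5. In FICZ 1 to 5 it stood at 152, 171, 172, 170 and 176 CPM. Every FICZ library was above every DMSO library, which held for 0.351% of all genes tested, and the FICZ library of each number was above its DMSO counterpart in 5 of 5 pairs, which held for 4.32%. The differences within pairs 1 to 5 were 0.29, 0.32, 0.32, 0.22 and 0.56 on the log2 scale, so that pair 5, which contains DMSO 5, was the widest.

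The fitted log2 fold change of Adcy7 was 0.34 with a standard error of 0.08 (95% interval 0.17 to 0.51). Its unadjusted p from edgeR's model across all genes ranked 14 of 14251 and its adjusted p was 0.979, so the difference did not pass the test. When libraries of the same number were blocked together, Adcy7 again differed by 0.34 on the log2 scale (standard error 0.07, 95% interval 0.18 to 0.50) and the adjusted p 0.568 by edgeR. In that fit 0.0561% of all genes passed at the adjusted p and 4.65% at an unadjusted p at or under 0.05, Adcy7 being among the latter. Without DMSO 5 the log2 fold change was 0.30 with a standard error of 0.07, at an adjusted p of 0.845 by edgeR. DESeq2 gave adjusted p-values of 0.0692 without and 0.0819 with the block. Adcy7 is displayed in the study's protein interaction map of genes it called differentially expressed in these same libraries. Its direction here is therefore not independent evidence of a response. The study's methods name DESeq2, by which Adcy7 did not pass here at 0.05.

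**Figure D3:**
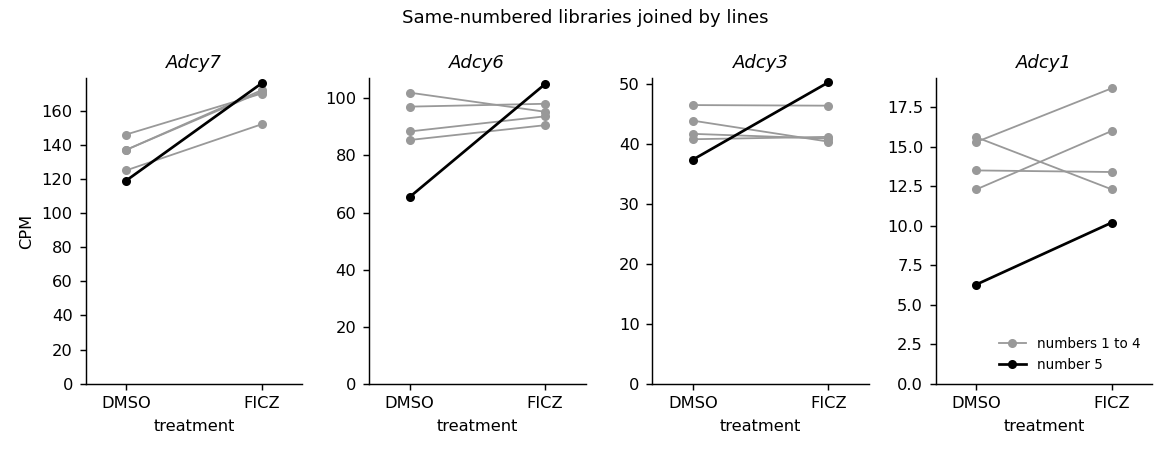
CPM of Adcy7, Adcy6, Adcy3 and Adcy1 (vertical axes from 0) in DMSO and FICZ, with lines joining libraries of the same number and number 5 in black. Adcy7 is higher with FICZ on all 5 lines. In every panel, that of Adcy7 included, the line of number 5 starts from the lowest DMSO point and has the steepest slope.

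Of the 2 other βγ-stimulated enzymes, Adcy4 (chromosome 14, 55769057 to 55784095, minus strand) stood at 6.16, 6.55, 6.21, 7.44 and 6.46 CPM in DMSO 1 to 5 and at 5.95, 6.36, 6.03, 7.92 and 8.55 CPM in FICZ 1 to 5. The groups overlapped and the log2 fold change was 0.08 (95% interval -0.21 to 0.38). Adcy2 (chromosome 13, 68620043 to 68999541, minus strand), which is best known from the brain, was near the lower end with 41 to 83 reads per library. It stood at 1.34, 1.67, 1.14, 1.52 and 1.33 CPM in DMSO and at 1.83, 1.76, 1.03, 1.22 and 1.85 CPM in FICZ, with a log2 fold change of 0.14 (95% interval -0.33 to 0.60). Its FICZ libraries included both the highest and the lowest values of the 10.

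The calcium-inhibited pair is led by Adcy6 (chromosome 15, 98589973 to 98610076, minus strand). It stood at 85.4, 97.1, 102, 88.4 and 65.4 CPM in DMSO 1 to 5 and at 90.6, 98.1, 95.3, 93.7 and 105 CPM in FICZ 1 to 5. DMSO 5 was well below the other DMSO libraries, which lay within the range of FICZ or close to it. The log2 fold change was 0.14 (95% interval -0.10 to 0.38), and 0.05 with a standard error of 0.07 without DMSO 5. Adcy5 (chromosome 16, 35154877 to 35305738, plus strand), known as the main cyclase of the striatum and one of those of the heart, stood at 4.56, 4.36, 5.52, 5.99 and 3.10 CPM in DMSO and at 3.40, 5.85, 4.74, 6.06 and 4.62 CPM in FICZ. Its groups overlapped over nearly their whole range, with a log2 fold change of 0.07 (95% interval -0.38 to 0.52) that was -0.05 without DMSO 5.

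Among the calcium-stimulated enzymes, Adcy3 (chromosome 12, 4133103 to 4213525, plus strand) serves odour signalling in the olfactory epithelium and is also widely expressed. It stood at 40.8, 43.9, 41.7, 46.5 and 37.4 CPM in DMSO 1 to 5 and at 41.2, 40.4, 40.9, 46.4 and 50.3 CPM in FICZ 1 to 5. The groups overlapped and the log2 fold change was 0.06 (95% interval -0.14 to 0.25), and 0.02 without DMSO 5. Of its exons, 1380 of 6246 bases are overlapped on the opposite strand by Cenpo, a centromere protein gene that stood at 14.4 ± 1.02 and 14.5 ± 0.611 CPM (SD, n = 5 each). Whether counting used strand is not given in the sources used here, so reads of Adcy3 and Cenpo in the overlap may not have been told apart. Smaller overlaps of this kind exist for Adcy6 (605 bases, Gm29331) and Adcy2 (189 bases, Gm35161).

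Adcy1 (chromosome 11, 7063489 to 7178506, plus strand), a neuronal enzyme of synaptic plasticity, was the most variable of the members with over 5 CPM. It stood at 15.6, 13.5, 15.3, 12.3 and 6.28 CPM in DMSO 1 to 5 and at 12.3, 13.4, 18.7, 16.0 and 10.2 CPM in FICZ 1 to 5. The lowest value in each group was that of number 5. The log2 fold change was 0.16 (95% interval -0.35 to 0.68), and -0.01 without DMSO 5. Adcy8 (chromosome 15, 64697084 to 64922296, minus strand), also a neuronal enzyme, was covered by 14 to 41 reads per library. It stood at 0.419, 0.824, 0.824, 0.898 and 0.492 CPM in DMSO and at 0.632, 0.679, 0.353, 0.438 and 0.601 CPM in FICZ, several times the limit of detection. The groups overlapped, and the log2 fold change of -0.35 had the widest interval of the family (-0.99 to 0.28) and was -0.46 without DMSO 5.

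Adcy9 (chromosome 16, 4287529 to 4420498, minus strand) varied least under vehicle. It stood at 18.9, 18.7, 20.3, 20.5 and 20.5 CPM in DMSO 1 to 5 and at 16.6, 18.8, 19.0, 19.9 and 22.9 CPM in FICZ 1 to 5. The FICZ range enclosed that of DMSO, and the log2 fold change was -0.02 (95% interval -0.23 to 0.18). For the 8 members other than Adcy7 the adjusted p was 0.999 (edgeR), which does not show that they did not respond. Without a block, the intervals of Adcy1, Adcy2, Adcy4, Adcy5 and Adcy6 reach to or beyond the 0.34 fitted for Adcy7. Those of Adcy3, Adcy8 and Adcy9 end at 0.25, 0.28 and 0.18. In the blocked fit the interval of Adcy4 ends at 0.32 and that of Adcy8 at 0.43.

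**Figure D4:**
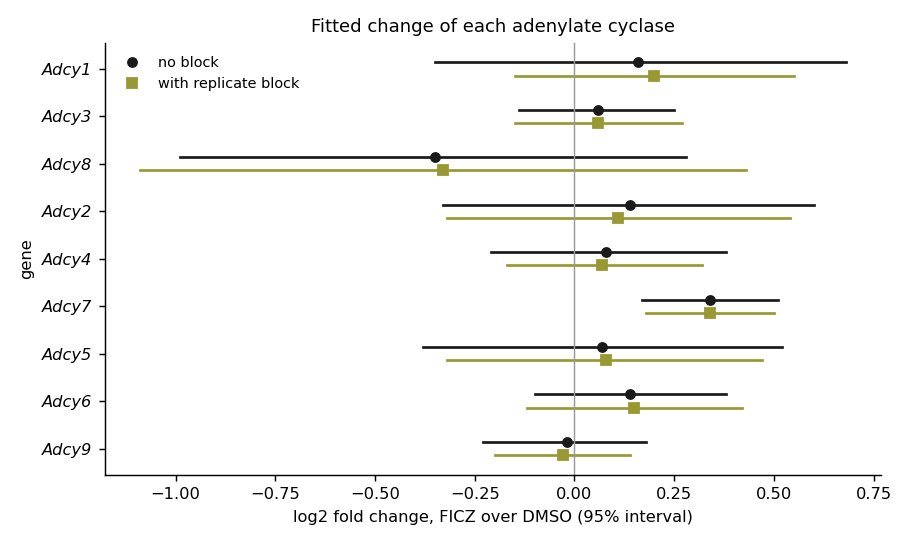
Fitted log2 fold change (FICZ over DMSO, horizontal axis) of each adenylate cyclase with its 95% interval from edgeR, without a block (circles) and with same-numbered libraries blocked (squares). The interval of Adcy7 lies above 0 in both fits (0.17 to 0.51 and 0.18 to 0.50) and those of the other 8 genes include 0.

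Some of the members varied together across libraries and others did not. DMSO 5 was the lowest DMSO library for 5 of the 9 genes (Adcy1, Adcy3, Adcy5, Adcy6 and Adcy7), and its hepatocyte markers were the highest, as given above. The part of those hepatocyte transcripts in the low values was not tested. The share of all genes that were lowest in DMSO 5 was not computed. With the group means taken off, log2 CPM of Adcy7 correlated across the 10 libraries with Adcy5 (Pearson's r = 0.81), Adcy6 (0.73) and Adcy3 (0.70), and Adcy3 with Adcy4 (0.85). Other pairs ran lower, such as Adcy8 with Adcy9 (0.01) and Adcy7 with Adcy2 (-0.03), down to -0.45 for Adcy1 with Adcy2. All points of these correlations share their libraries, so they are given as a description. Over 10725 genes with a mean of at least 5 CPM, the 5 most like Adcy7 by this measure were Uggt1, which checks the folding of glycoproteins (0.97), Dstyk, a dual-specificity kinase (0.96), Dock1, an activator of RAC (0.95), Glg1, a Golgi glycoprotein (0.95), and Il6st, the shared receptor chain of the IL-6 family (0.94). The log2 fold changes of these 5 with FICZ were -0.02 to 0.08. Because the group means were taken off first, this measure sees only the variation within groups. DMSO 5, the lowest DMSO library for Adcy3, Adcy5, Adcy6 and Adcy7, is among the 10 libraries. None of these correlations was computed again without it.

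The 250 bases before each RefSeq start site of the members were searched for the AHR core motif, GCGTG or its reverse complement CACGC. Windows were found for 7 of the 9 members (all but Adcy6 and Adcy8). Of 10 windows, 6 held the motif, as did 28.2% of all 32841 windows of this length. Adcy7 has 3 such start sites, at 88282992, 88289066 and 88294204, all inside the gene span given above. The bases before the start of that span, 88272403, were not searched. Of the 3 windows, only that of the start site furthest inside the gene held the motif, once, 229 bases before the start. It is shown because Adcy7 is the member with the smallest p, with the core in capitals, on the plus strand of GRCm38.p6, chr8:88293954-88294203:

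Adcy7: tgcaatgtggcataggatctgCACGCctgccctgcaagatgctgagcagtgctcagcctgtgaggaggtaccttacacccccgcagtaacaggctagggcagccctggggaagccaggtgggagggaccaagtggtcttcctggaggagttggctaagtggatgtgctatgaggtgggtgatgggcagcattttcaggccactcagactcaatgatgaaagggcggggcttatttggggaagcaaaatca

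The window holds no exon of Adcy7. A match of 5 letters is a description of the sequence and not a binding site, and AHR binding was not measured in these libraries.

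The other genes of the cAMP pathway were compared with the cyclases in the same fit. Of 106 genes in 6 lists, 83 were tested and none passed at the adjusted p by edgeR or DESeq2. At an unadjusted p at or under 0.05, edgeR gave 4 of the 83 genes (Pde4c, Rapgef4, Pck1 and Dusp1), near the 4.82% of all genes. All 4 had negative fold changes, as did 497 of the 687 such genes overall. DESeq2 gave 5 pathway genes at that cut, beside 943 of the 19292 genes it tested. With the replicate block edgeR gave 3 genes, namely Dusp1 and Pde4b (lower) and Prkar2b (higher). Pde4b, which was not among the genes named by rule, had a log2 fold change of -0.36. Without DMSO 5, and without a block, none of the 83 was left in that count: the fold changes of Pde4c, Rapgef4 and Pck1 were smaller, while that of Dusp1 was the same (-0.20).

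Of the receptors that couple to Gs, 16 of 32 were tested, 8 with a log2 fold change above 0, and the median was -0.00 (6 above 0 and -0.02 without DMSO 5). The receptor with the highest level per length was Adcyap1r1, the receptor of the neuropeptide PACAP, at 96.6 CPM per kb in DMSO and 104 in FICZ, with a log2 fold change of 0.10 (95% interval -0.14 to 0.35). The 2 receptors with the smallest p were Gcgr, the glucagon receptor, and Vipr1, a receptor of vasoactive intestinal peptide. Gcgr, a gene typical of hepatocytes, stood at 16.8 CPM in DMSO 5 against a mean of 4.55 in the other DMSO libraries, and Vipr1 at 2.79 against 1.04. Their log2 fold changes of -1.0 and -0.62 were -0.37 and -0.20 without DMSO 5.

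Of the 7 G protein alpha subunits that act on the cyclases, 2 had a fold change above 0 and the median log2 fold change was -0.06 (2 and -0.05 without DMSO 5). Gnai2, an inhibitory subunit, had the highest level per length, at 124 CPM per kb in DMSO and 119 in FICZ. Gnai1 and Gnaz, inhibitory subunits as well, had the smallest p in this list, with log2 fold changes of 0.15 and -0.27 whose intervals include 0.

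Of 16 cAMP phosphodiesterases, 4 had a fold change above 0, with a median log2 fold change of -0.06 (5 and -0.05 without DMSO 5). Pde8a had the highest level per length (14.2 CPM per kb in DMSO, 14.4 in FICZ). Pde4c had the smallest p and was scarcely expressed, at 0.571 ± 0.462 CPM in DMSO and 0.199 ± 0.106 in FICZ (SD, n = 5 each). Its highest value, 1.27 CPM, was in DMSO 5, and without that library its log2 fold change of -1.51 was -0.96. Pde7b, next by p, had a log2 fold change of -0.24 (95% interval -0.60 to 0.11).

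Of 11 effectors tested, 5 had a fold change above 0 and the median log2 fold change was -0.02 (2 and -0.04 without DMSO 5). Prkar1a, a regulatory subunit of protein kinase A, had the highest level per length, at 116 CPM per kb in DMSO and 114 in FICZ. Rapgef4, which encodes EPAC2, stood at 9.21 CPM in DMSO 5 against a mean of 3.25 in the other DMSO libraries, and its log2 fold change of -0.74 was -0.29 without DMSO 5. Prkar2b, another regulatory subunit and one prominent in fat cells, was higher with FICZ in 5 of 5 pairs. This held for 4.32% of all genes tested, and also for Adcyap1r1 and Akap6. The log2 fold change of Prkar2b was 0.18 (95% interval -0.09 to 0.44), and 0.19 in the blocked fit (0.03 to 0.35, adjusted p = 0.929 by edgeR). Without DMSO 5, and without a block, that of Prkar2b was 0.13 with a standard error of 0.12.

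The A-kinase anchoring proteins, which tether protein kinase A, had a median log2 fold change of 0.09, and 8 of 11 tested were above 0. Without DMSO 5 the median was 0.02, and 6 of 11 were above 0. Akap12 had the highest level per length, with 211 CPM in DMSO 5 against a mean of 509 in the other DMSO libraries. Akap10 and Akap6 had the smallest p, with log2 fold changes of 0.09 and 0.22 whose intervals include 0.

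Among 22 CREB factors and genes that cAMP induces, 8 had a fold change above 0 and the median log2 fold change was -0.08 (6 and -0.06 without DMSO 5). Cebpb, an early factor of adipogenesis, had the highest level per length, at 72.7 CPM per kb in DMSO and 72.8 in FICZ, with a log2 fold change of 0.00 (95% interval -0.38 to 0.39). Pck1, the gluconeogenic enzyme of liver and also an enzyme of fat, stood at 126 CPM in DMSO 5 against a mean of 35.1 in the other DMSO libraries. Its log2 fold change of -1.12 was -0.51 without DMSO 5. Dusp1, a phosphatase of MAP kinases, was lower with FICZ in each of the 5 pairs, from 13.6 ± 0.489 to 11.8 ± 1.22 CPM (SD, n = 5 each). Lower in each pair among the tested pathway genes were also Pde1a, Pde3a, Pde4b, Pde11a, Pkig, Ppargc1a and Id1. The share of all genes with this pattern was not computed. The log2 fold change of Dusp1, -0.20, did not pass the test (adjusted p = 0.999, edgeR).

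**Figure D5:**
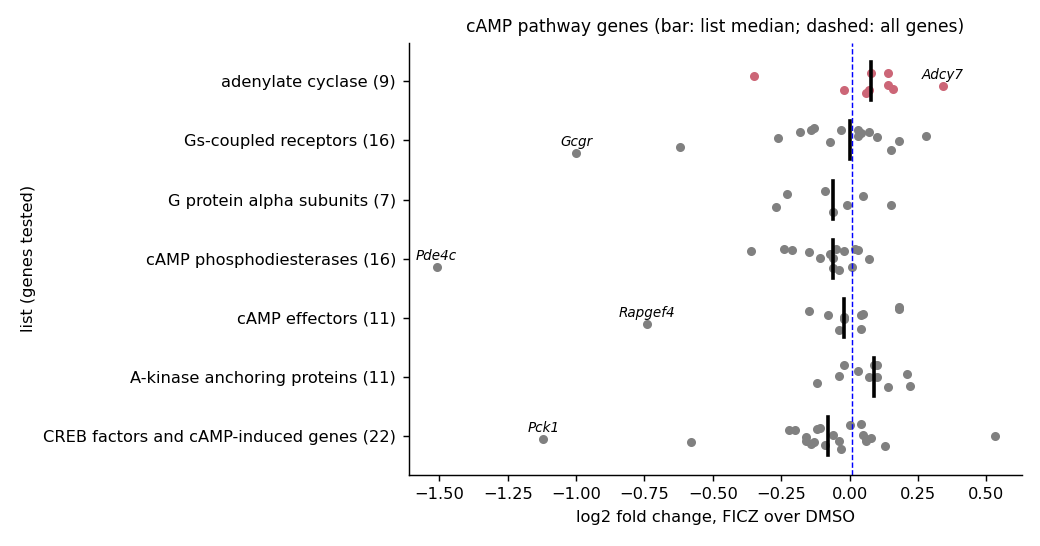
Log2 fold change (FICZ over DMSO, horizontal axis) of every tested gene of the adenylate cyclases and 6 other cAMP pathway lists, with the list median as a bar and the median of all genes as a dashed line. The list medians lie between -0.08 and 0.09, and Gcgr, Pde4c, Rapgef4 and Pck1, far to the left, were all highest in DMSO 5.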

How the data were processed

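Bulk RNA was sequenced from 5 DMSO and 5 FICZ cultures. The authors aligned reads to mm10 with STAR 2.7.7, per the submitters' processing notes, and deposited raw counts per gene symbol, without normalisation. The counter, its annotation and its strand setting are not given in the sources used here. Counts were fitted with edgeR 4.0.16 (TMM, filterByExpr, robust quasi-likelihood test, Benjamini-Hochberg over 14251 genes, threshold 0.05) in R 4.3.3. DESeq2 1.42.0 and limma 3.58.1 (voom) were alternatives, and the fits were tested on simulated data. Gene lengths and overlaps came from GENCODE M21 (GRCm38, 96.4% of symbols matched), and promoter windows from RefSeq. The members and the pathway lists were chosen with earlier results of these data known. Named genes were all members, 4 AHR targets and, per list, those past the threshold, otherwise the 2 with the smallest p, together with the gene highest per kilobase, and the 5 genes most like Adcy7. Same-numbered libraries deviated together (correlations of 0.15 to 0.32 over genes, against a mean of -0.06 for different numbers). Of the 5 DMSO libraries, 3 correlated best with the FICZ library of their own number. Group means were taken off first, which in itself pulls the mean for different numbers down. The numbers were taken to pair libraries, and the replicate block was an alternative (common biological coefficient of variation 0.209 without and 0.170 with it). Within groups, all 20 pairs of libraries differed beyond sampling noise (chi-square per degree of freedom 16.4 to 281). Intervals cover the spread between libraries, and the detection limit of 3 counts covers counting error only.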

Additional observations from a re-analysis of the deposited data

Results flagged for a closer look

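In Adcy7, FICZ 1 (152 CPM) stood apart from the other FICZ libraries (170 to 176 CPM): the gap to the nearest of them was 0.757 of the whole range of the group, beyond the critical value for 5 samples. In all, 18 groups of 5 were looked at (9 genes, both treatments), of which chance would pick about 1 in 20, or 0.9. FICZ 1 was still above every DMSO library.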

How the results depend on the processing

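None of the 9 cyclases and none of the 83 pathway genes passed the threshold under any of the 19 alternatives (18 for Adcy8, which the filter of 1 CPM removed). The log2 fold change of Adcy7 ran from 0.30 to 0.37 over them. The log2 fold change turned sign for Adcy1 (-0.01) and Adcy5 (-0.05) without DMSO replicate 5, for Adcy5 (-0.01) without FICZ replicate 4, for Adcy3 (-0.01) and Adcy4 (-0.01) without FICZ replicate 5, and for Adcy9 (0.03) without FICZ replicate 1. With a library left out in turn, the ranges of these genes were -0.01 to 0.25 for Adcy1, -0.01 to 0.10 for Adcy3, -0.01 to 0.14 for Adcy4, -0.05 to 0.18 for Adcy5 and -0.10 to 0.03 for Adcy9. Over all genes, 3 passed, against 8 with the replicate block, 16 by DESeq2, 26 by DESeq2 with the replicate block and 1 to 4 with a library left out. The replicate block changed no call among the cyclases or pathway genes. At baseline, the longest coding sequence as length, chosen after seeing the data in place of the planned length from a protein table, which was not run, gave 44.8% for Adcy7, 13.6% for Adcy3, 5.46% for Adcy9, 2.27% for Adcy4, 4.12% for Adcy1 and 0.476% for Adcy2. Without length scaling, Adcy3 held 13.7%, Adcy9 6.47%, Adcy4 2.14%, Adcy1 4.04% and Adcy2 0.457%. Under FICZ, the shares beyond 1 SD of vehicle were Adcy7 46.5%, Adcy3 13.1%, Adcy9 6.95% and Adcy8 0.124%. Adcy8, with the fewest reads, had the largest standard error of the fold change (0.29), followed by Adcy1 (0.24).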
